A study of Mus musculus with 15 samples.

Results

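The data described here compare doublecortin knockout (Dcx KO) mice with wild-type (WT) mice across the CA3 field of the hippocampus, with each KO animal taken as the mean of its inner and its outer CA3 layer. All 15 arrays of the series entered, which stood for 10 animals. They were 5 KO animals with 2 arrays each and 5 WT animals with 1 array each. Members were chosen by label: the inner and outer arrays that carry the same animal number gave 1 value, and each WT array gave 1 value.

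Every sample was CA3 tissue of a mouse at postnatal day 0, cut out by laser microdissection, with the pieces of a brain pooled before RNA extraction. KO samples carried the Mutant genotype, and the inner (internal) and outer (external) part of CA3 were collected apart from the same animals. WT samples were taken from the CA3 region as a whole. Strain, sex and the nature of the Dcx allele are not given in the sources used here. The mean of both layers gives each layer the same weight, whatever its share of the tissue, and the WT arrays have no matching split.

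Doublecortin is a microtubule-associated protein of newborn and migrating neurons, where it stabilises microtubules in the leading process and around the nucleus. CA3 is a field of pyramidal neurons on which granule cell axons, the mossy fibres, end. In Dcx KO mice its cell layer is split, while the neocortex of the mouse is layered almost normally. The comparison asks which transcripts differ between the genotypes in both parts of the split field. In bulk tissue, fewer cells of a type and less RNA per cell cannot be told apart.

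One division of the arrays bears on every value below. A score table deposited by the authors carries an added shift on 8 arrays, which are those of KO animals 1 to 4, and none on the other 7, those of KO animal 5 and of WT. The shift varies between entries, with an SD in score units of 0.101 on the inner and 0.110 on the outer arrays of KO animals 1 to 4. No batch is named in the labels, and the terms shifted and unshifted array set stand for these groups below. Both sets were parted by the first principal component, which carried 40.2% of all variance. Levels of the Y-linked gene Eif2s3y parted them too, at 8.08 or more on the shifted arrays and 7.17 or less on the others, and Xist was below detection on all 15. KO animal 5 is therefore the one KO animal that can be set against WT inside the same array set, and its value is given beside most of the genes named. Between 10718 and 12072 probes were detected per array. All levels are log2 signals after background correction and quantile normalization, so a difference of 1 is a 2-fold change, and a call is an adjusted p under 0.05 in limma.

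Dcx itself was the transcript with the clearest difference. Its level in KO animals 1 to 5 was 10.46, 10.57, 10.60, 10.67 and 10.46. In WT animals 1 to 5 it was 11.94, 12.07, 11.76, 12 and 12.04. Every KO array lay more than 1 log2 unit below every WT array, and KO animal 5 was as low as the other KO animals. The mean fell by 1.41 ± 0.08 (SE, log2; n = 5 and 5 animals; limma, adjusted p = 3.49e-05), a level 2.66-fold lower. An exact two-sided permutation test over all splits of the animals into 5 and 5 gave p = 0.00794, the smallest this design allows. KO animal 5 alone differed from the WT mean by -1.51. The inner layer differed by -1.47 and the outer layer by -1.35, and the layers did not differ from each other past the threshold (0.12, limma adjusted p = 0.264).

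Of the other Dcx probes, one was called as well (-1.05, adjusted p = 0.00323), and one was below detection on all 15 arrays. Dcx signal thus stayed well above background in the KO, with means of 10.55 ± 0.09 (SD, n = 5 animals) against 11.96 ± 0.12 in WT. Where the probes lie along the transcript is not stated in the sources used here. The related kinases Dclk1 and Dclk2, which carry doublecortin domains, were not called. Dclk1 differed by -0.22 ± 0.09 (SE; adjusted p = 0.0874) and by -0.09 in KO animal 5, and Dclk2 by 0.10 ± 0.10 (adjusted p = 0.490). Among the 15 protein-coding genes on either side of Dcx in RefSeq order, 8 were measured. Acsl4, an acyl-CoA synthetase, was the one called (-0.31, adjusted p = 0.0416, and -0.16 in KO animal 5), where 22.2% of all genes were called. Its other kept probe was not called (0.06, adjusted p = 0.841). Acsl4 was named after its value was seen.

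**Figure D1:**
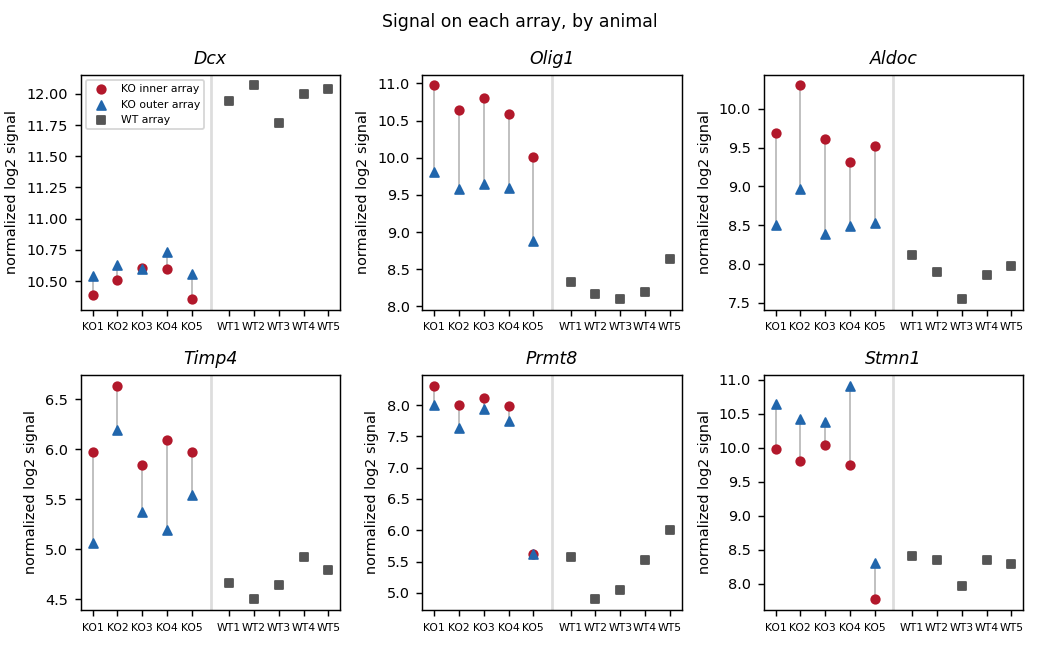
Normalized log2 signal of 6 genes on each array, by animal (x axis); red circles are KO inner arrays, blue triangles KO outer arrays, joined within an animal, and grey squares WT arrays. Dcx is low in all 5 KO animals, Olig1, Aldoc and Timp4 are high in all 5, and Prmt8 and Stmn1 are high in KO animals 1 to 4 while KO animal 5 lies among or below the WT arrays.

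Across all animals, 954 of 8442 genes were higher in the KO (11.3%) and 921 were lower (10.9%), 22.2% in either direction. The higher genes had a median difference of 0.69 over all KO animals, 0.83 in KO animals 1 to 4 and 0.09 in KO animal 5. The lower genes had medians of -0.40, -0.45 and -0.20. The median over all genes was -0.08, and -0.01 in KO animal 5. It was 0.08 with the deposited signals as they stand and 0.03 with median scaling, so small differences are relative to the scaling. The 2 directions differed in size: 240 genes were higher by 2-fold or more, and 1 gene, Dcx, was lower by as much. A probe was kept if detected on at least 5 arrays, which the 10 KO arrays can meet without WT. A gene detected in WT alone needs all 5 WT arrays. Among the called genes, 91 were detected on no WT array and 0 on no KO array. The part of this filter in the difference in size was not tested.

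With the array set as a term in the fit, the genotype difference rests on KO animal 5 against WT, and 1 gene of 8442 was called (0.0118%), which was Dcx (-1.51 ± 0.14 SE, limma adjusted p = 0.00795). At an unadjusted p under 0.05 that fit held 316 genes. KO animal 5 set against WT alone gave 0 calls in limma, with Dcx at an adjusted p of 0.343, and 283 genes at an unadjusted p under 0.05. When the 15 arrays were fitted singly, with the array set in the model and animals as random blocks, limma called Dcx and Olig1 (1.16, adjusted p = 0.0110). Genotype and array set cannot be told apart for the part of a difference that KO animal 5 does not share.

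The number of calls also rested on single animals. It was 1875 with all animals, 1058 without KO animal 1, 21 without KO animal 2, 13 without KO animal 3, 15 without KO animal 4 and 3047 without KO animal 5. It was 952 without WT animal 2, 785 without WT animal 3 and 902 without WT animal 4. Leaving out the 7 arrays high in skeletal muscle or bone transcripts took inner arrays 1, 2 and 5, outer array 1 and WT arrays 1 to 3. KO animal 1 was then absent, KO animals 2 and 5 were their outer array alone, and WT animals 4 and 5 remained. That limma fit gave 0 calls, with 1229 of 8442 genes at an unadjusted p under 0.05, against 3341 with all animals. Dcx then had a difference of -1.41 and an adjusted p of 0.0513. How far the smaller and uneven groups lowered these counts was not tested.

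The genes with the largest differences were high in 4 of the 5 KO animals. The leading 6 were Prmt8, a protein arginine methyltransferase of neurons, Rgma, a membrane-anchored repulsive guidance molecule, Vps26b, a subunit of the retromer sorting complex, Ankrd46, Zc3h15, a zinc finger protein, and Pabpc1, which binds the poly(A) tail of messenger RNA. Prmt8 was at 8.15, 7.82, 8.02, 7.86 and 5.62 in KO animals 1 to 5, and at 5.58, 4.90, 5.05, 5.52 and 6.0 in WT. KO animal 5 lay inside the WT range and the other 4 lay far above it. The difference was 2.09 ± 0.44 (SE; limma adjusted p = 0.0196) over all animals, 2.56 in KO animals 1 to 4 and 0.21 in KO animal 5.

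Rgma showed the same form, with 9.05, 9.30, 9.21, 9.13 and 6.61 in the KO and 6.41, 6.36, 6.85, 6.94 and 7.11 in WT. Its difference was 1.93 over all animals and -0.13 in KO animal 5. Pabpc1 had 10.78, 10.69, 10.69, 10.67 and 8.46 in the KO against 8.18 to 8.77 in WT. Its 2 other kept probes did not share the difference, with -0.29 (adjusted p = 0.257) and -0.34 (adjusted p = 0.103). The others differed by 1.91 (Vps26b), 1.85 (Ankrd46) and 1.82 (Zc3h15) over all animals, and by -0.0014, 0.14 and -0.21 in KO animal 5.

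As a group, the 240 genes higher by 2-fold or more had this form. Their median difference from WT was 1.61, 1.54, 1.58 and 1.53 in KO animals 1 to 4 and -0.01 in KO animal 5. Both arrays of KO animal 5 lay above all WT arrays for 7 of them (2.92%, against 5.63% of all genes). They lay below all WT arrays for 5 (2.08%, against 6.85%). A second kept probe existed for 44 of the 240 genes, and for 28 of these no other probe was called (1548 of 2163 over all genes). For 15 another probe was called higher, and for 1 another probe was called lower (404 and 218 of 2163 over all genes).

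**Figure D2:**
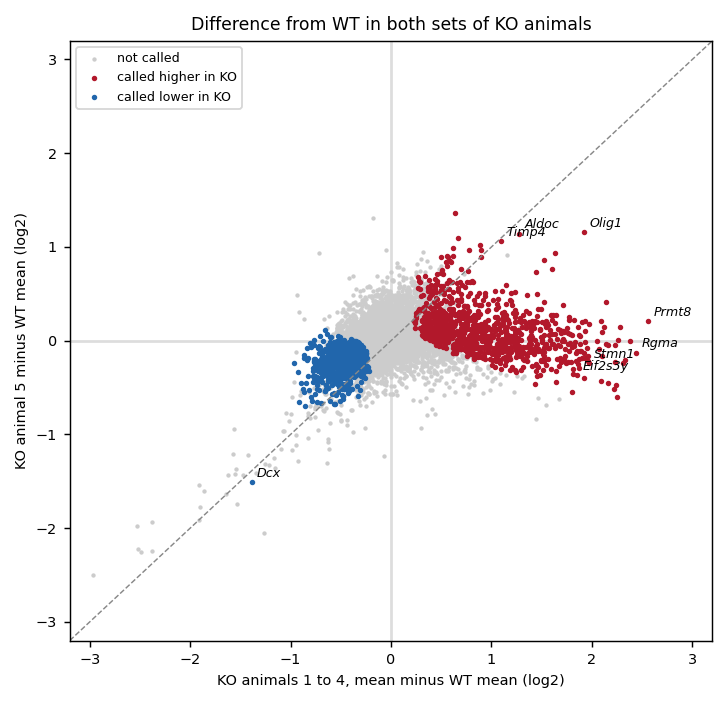
Each point is a gene, placed by its difference from the WT mean in KO animals 1 to 4 (x axis, log2) and in KO animal 5 (y axis, log2), with called genes in red (higher) and blue (lower) and the dashed line marking equal values. The genes with the largest positive differences spread along the x axis near 0 in KO animal 5, with medians of 0.83 and 0.09 for the higher genes, while Dcx, Aldoc and Timp4 lie near the dashed line.

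A stricter description asks for all 10 KO arrays on 1 side of all 5 WT arrays, which both layers and KO animal 5 must meet. Above all WT arrays were 57 of the 8442 genes (0.675%) and below were 180 (2.13%). Of these, 55 and 166 were called as well, and their median differences were 0.63 and -0.40 over all animals and 0.30 and -0.25 in KO animal 5. Which direction held more genes turned with the scaling, at 8 higher and 1 lower with the deposited signals as they stand, 41 and 7 with median scaling and 42 and 25 with the authors' scores. It turned as well without KO animal 2 (10 and 5), 3 (7 and 3), 4 (9 and 2) or 5 (835 and 586). For both arrays of KO animal 5 alone, 475 genes (5.63%) lay above all WT arrays and 578 (6.85%) below. Of the 954 genes called higher, 126 (13.2%) had both arrays of KO animal 5 above WT and 13 had both below. Of the 921 called lower, 303 (32.9%) had both below and 0 had both above. KO animal 5 entered those calls, so these shares are a description.

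The 12 higher genes named from this set were those whose smaller difference, over all animals or in KO animal 5, was largest. The lower ones below were chosen in the same way. A lack of overlap and a difference in KO animal 5 were thus conditions of the choice, and are given as a description. The sizes of these genes are at the upper end of what the data hold. Olig1, a transcription factor that specifies the oligodendrocyte lineage, led them. Its level was 10.39, 10.11, 10.23, 10.09 and 9.44 in KO animals 1 to 5 and 8.32, 8.17, 8.10, 8.20 and 8.64 in WT. All KO animals were above all WT animals, and KO animal 5 was the lowest of them. The difference was 1.77 ± 0.17 (SE; limma adjusted p = 0.00280), a level 3.40-fold higher, and 1.16 in KO animal 5. It was larger in the inner layer (2.32) than in the outer layer (1.21), and the layers themselves differed by -1.11 (adjusted p = 0.000243).

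Aldoc, the aldolase isoform that astrocytes and radial glia carry in the brain, was at 9.09, 9.64, 9.0, 8.90 and 9.02 in the KO. In WT it was at 8.12, 7.90, 7.55, 7.86 and 7.97. The groups did not overlap, and KO animal 5 lay in the middle of the KO animals. The difference was 1.25 ± 0.15 (SE; adjusted p = 0.00906), 2.38-fold, and 1.14 in KO animal 5. It was 1.80 in the inner and 0.69 in the outer layer.

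Timp4, an inhibitor of matrix metalloproteinases, was detected on 10 of 10 KO arrays and on 0 of 5 WT arrays. It was at 5.52, 6.42, 5.61, 5.64 and 5.76 in the KO and at 4.66, 4.50, 4.64, 4.92 and 4.79 in WT, where it was not well above background. The groups were apart, with KO animal 2 the highest. The measured means differed by 1.09 ± 0.16 (SE; adjusted p = 0.0148), by 1.06 in KO animal 5, and the level was at least 1.70-fold higher when WT was set at the lowest detected signal.

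Slc35f1, a member of a family of solute carriers, was at 6.36, 6.60, 6.66, 6.79 and 5.91 in the KO and at 5.10, 4.37, 5.31, 4.96 and 5.09 in WT. KO animal 5 was the lowest KO animal and still above every WT animal. The difference was 1.5 ± 0.20 (adjusted p = 0.0125), with 0.94 in KO animal 5. Smc6, a subunit of a chromosome maintenance complex, was at 6.44, 6.45, 6.73, 6.82 and 5.90 against 5.45, 4.62, 4.79, 5.52 and 5.46. Its difference was 1.30 ± 0.22 (adjusted p = 0.0174), and 0.73 in KO animal 5.

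Another 5 of the higher genes differed by less than 1 log2 unit. Slco2b1, an organic anion transporter, was at 6.51, 6.63, 6.44, 6.17 and 6.63 against 6.03, 5.62, 5.37, 5.54 and 5.73, and its difference was as large in KO animal 5 (0.97) as over all animals (0.82). Gstm1, a glutathione S-transferase, was at 6.96, 7.24, 6.96, 6.80 and 6.82 against 6.33, 5.98, 6.14, 6.20 and 6.24, with 0.78 over all animals and 0.64 in KO animal 5. Ndrg2, abundant in astrocytes, differed by 0.80 and by 0.50 in KO animal 5. Usp10, a deubiquitinase, differed by 0.85 and 0.51, and its other probe by 0.98 (adjusted p = 0.0260). Dleu7 differed by 0.56 and 0.47.

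The remaining 2, Slc22a21, an organic cation and carnitine transporter, and Slc31a2, a copper transporter, were near background. Both were below detection on all WT arrays and detected on 7 and 6 of the 10 KO arrays. Slc22a21 was at 4.97, 5.31, 4.95, 5.00 and 5.03 in the KO and 4.34, 4.18, 4.38, 4.27 and 4.27 in WT, a level at least 1.02-fold higher (measured difference 0.76, adjusted p = 0.00800). The measured means of Slc31a2 differed by 0.57 (adjusted p = 0.0164), with no fold given.

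**Figure D3:**
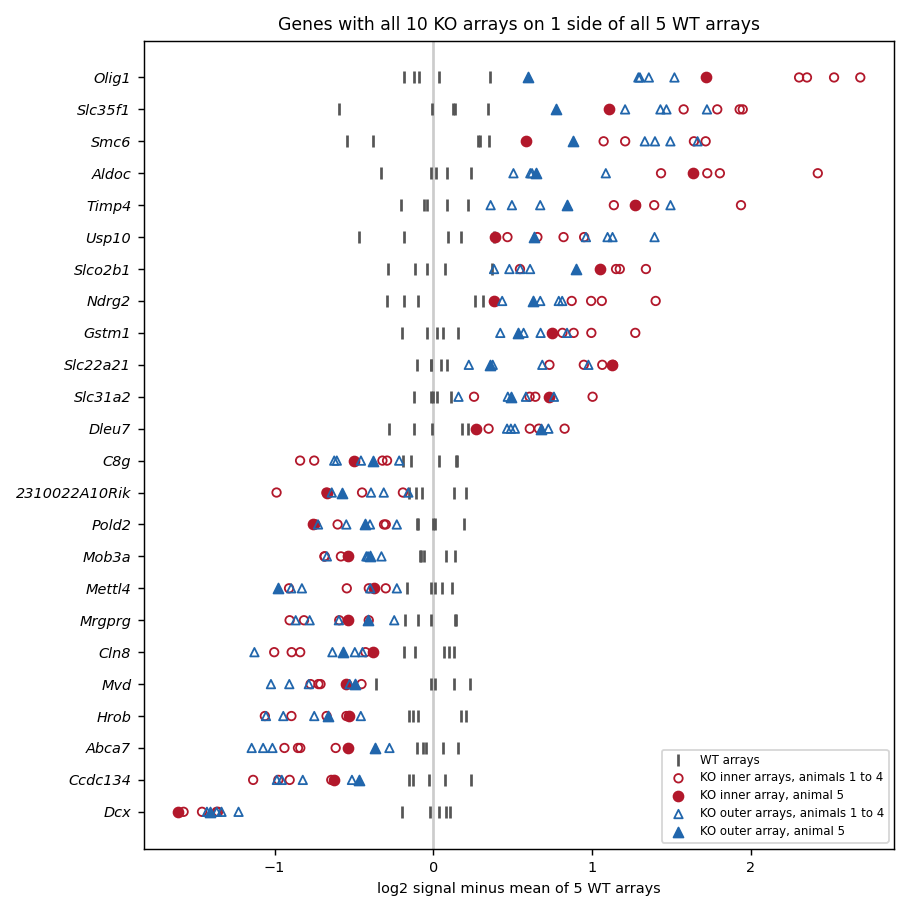
Difference of every array from the WT mean (x axis, log2) for the 12 higher and 12 lower genes named from the set with all 10 KO arrays on 1 side of all 5 WT arrays; grey ticks are WT arrays, circles inner and triangles outer KO arrays, filled for KO animal 5. Olig1 spans the widest range. The filled symbols lie on the same side as the open ones in all 24 genes, which the choice of genes required.

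The lower genes of this set differed by less. Beside Dcx, the 11 others ranged from -0.80 to -0.50 over all animals (adjusted p from 0.0125 to 0.0196) and from -0.68 to -0.44 in KO animal 5. None of the 11 differed between the layers past the threshold and 7 of the 12 higher genes did, where 20.9% of all genes did. Both layers had to lie on the same side of WT, which leaves less room for a layer difference where the difference from WT is small. These counts are therefore a description. Ccdc134 was at 7.39, 6.92, 7.06, 7.02 and 7.42 in the KO and at 8.20, 7.81, 7.94, 8.04 and 7.83 in WT. The groups were apart, and the difference was -0.80 ± 0.12 (SE), or -0.55 in KO animal 5.

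Mvd, which makes isopentenyl diphosphate in cholesterol synthesis, was at 9.37, 9.04, 9.11, 8.96 and 9.34 against 9.87, 9.50, 9.85, 9.99 and 10.09 (-0.69, adjusted p = 0.0189). Abca7, a lipid transporter, was at 6.92, 6.33, 6.44, 6.41 and 6.92 against 7.27 to 7.53 in WT (-0.77), and its other probe was not called (-0.17, adjusted p = 0.520). Both genes were less reduced in KO animal 5, at -0.52 and -0.45.

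Hrob, a factor of homologous recombination, was at 5.15, 4.74, 4.80, 4.96 and 5.11 against 5.56 to 5.91 in WT (-0.76, and -0.60 in KO animal 5). Pold2, a subunit of DNA polymerase delta, was at 8.66, 8.42, 8.36, 8.35 and 8.33 against 8.83, 9.12, 8.94, 8.93 and 8.83. Its difference was -0.50 ± 0.09 over all animals and -0.60 in KO animal 5. Mettl4, a methyltransferase, was likewise lower in KO animal 5 (-0.68) than in the mean of all (-0.59).

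Cln8, a membrane protein of the endoplasmic reticulum, was detected on 4 of the 10 KO arrays and all 5 WT arrays. It was at 4.81, 4.77, 4.82, 4.85 and 5.07 against 5.36, 5.68, 5.65, 5.62 and 5.43, a difference of -0.68 ± 0.09 (adjusted p = 0.0125). Its other probe differed by 0.02 (adjusted p = 0.944), so the 2 probes of Cln8 disagree. The others were Mrgprg, an orphan receptor (-0.62), Mob3a, of the MOB kinase activator family (-0.52), 2310022A10Rik (-0.50) and C8g, a chain of complement component 8 (-0.50).

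A further view is which calls did not rest on any single animal. Of the 1875 genes, 12 were called in each of the 10 fits that leave out 1 animal, 8 of them higher and 4 lower. This group was chosen after its values were seen, and its KO animal 5 difference was 62.8% to 112% of that over all animals. KO animal 5 entered all but 1 of the fits, so the choice itself favours genes in which it shares the difference. These percentages are a description. The higher genes were Olig1, Slc35f1, Aldoc, Timp4, Gstm1 and Slc22a21, given above, with Tril, a glial partner of Toll-like receptor 4, and Jam2, a junctional adhesion molecule. Tril was at 8.70, 9.09, 8.95, 8.83 and 9.03 in the KO and at 8.44, 7.91, 7.80, 7.89 and 8.02 in WT. All KO animals were above all WT animals, though outer arrays 1 (7.97) and 4 (8.41) were below the highest WT array. The difference of Tril was 0.91 ± 0.13 (SE; adjusted p = 0.0125) and 1.02 in KO animal 5. Jam2 was below detection in WT and detected on 6 of the 10 KO arrays (measured difference 0.64, adjusted p = 0.00984), with no fold given.

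The lower genes of that group were Dcx, Cln8, Cldn3 and Emilin2. Cldn3, a claudin of tight junctions, was at 6.26, 6.49, 6.58, 6.27 and 6.67 against 7.40, 7.49, 7.22, 7.36 and 7.12. Emilin2, an extracellular matrix glycoprotein, was at 8.40, 8.39, 8.43, 8.56 and 8.57 against 9.17, 9.20, 8.93, 9.25 and 8.97. The animal means of both genes did not overlap between genotypes, yet the difference lay in 1 layer. Cldn3 differed from WT by -1.68 in the inner and -0.05 in the outer layer, and Emilin2 by -1.27 and 0.00. A mean over both layers can therefore be called where the outer layer is at the WT level.

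Layer differences were counted for that reason. Within KO animals, 1765 genes (20.9%) differed between outer and inner layer (limma with the animal as a block). Of the 1875 genes called between genotypes, 415 (22.1%) did so, near that background. Among the genes with all 10 KO arrays on 1 side of WT, 11 of the 55 higher and 6 of the 166 lower ones did. That set was chosen with both layers on the same side, which limits layer differences in it. Inner and outer comparisons share the WT arrays.

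Among the 6 lower genes with the largest differences, 5 beside Dcx were Cldn3, Pi16, a peptidase inhibitor (-0.82), Kcp, a secreted modulator of BMP signalling (-0.82), Pomt2, which starts O-mannosylation of dystroglycan (-0.81), and Itprip (-0.81). Kcp differed by -1.41 in the inner and -0.24 in the outer layer, and by -0.24 in KO animal 5. Pi16 kept -0.70 in KO animal 5, and Pomt2 and Itprip -0.33 and -0.45.

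Lists of cell type markers and pathways describe the same comparison by group, and counts are read against the 22.2% called among all genes. Over the 35 lists, with a gene of 2 lists counted in both, there were 113 calls with all animals. There were 5 without KO animal 2, 3 without KO animal 3, 4 without KO animal 4 and 151 without KO animal 5. Other normalizations gave 47 (deposited signals as they stand), 48 (the authors' scores), 87 (median scaling) and 133 (quantile normalization alone). Without the muscle and bone arrays there were 0 calls, in smaller and uneven groups whose part in this was not tested. Radial glia genes, which mark the progenitors of neurons and astrocytes, held 12 measured members, of which 7 were higher and 0 lower. Their median was 0.54 over all animals and 0.47 in KO animal 5, against -0.08 and -0.01 over all genes. Nes, an intermediate filament of progenitors, was at 7.24, 6.91, 7.22, 7.37 and 7.02 in the KO and 6.69, 6.63, 6.44, 6.22 and 6.0 in WT. The animals did not overlap, and the difference was 0.76 ± 0.14 (SE; adjusted p = 0.0196), with 0.62 in KO animal 5, while its other probe gave 0.09 (adjusted p = 0.685).

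Notch1, the receptor that keeps radial glia undifferentiated, was below detection in WT and at least 1.33-fold higher (adjusted p = 0.0174), with a measured 0.39 in KO animal 5. The glial transcription factor Sox9, detected on 1 of 5 WT arrays, was higher by 0.78 (adjusted p = 0.0196; 0.47 in KO animal 5). Hes5, a Notch target, was higher by 0.68 (adjusted p = 0.0241; 0.62 in KO animal 5), with another probe at 0.20. The median of the list was 0.88 in the inner and 0.19 in the outer layer. The mean level of the list was 6.67 to 6.79 in KO animals and 6.32 to 6.55 in WT animals. How far the share of glia in the dissected tissue moves Olig1, Aldoc and the other glial genes was not tested.

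Of 11 astrocyte genes, 5 were higher and 1 lower, with a median of 0.49 and of 0.29 in KO animal 5. Beside Aldoc, the higher ones included Bcan, a proteoglycan of the perineuronal matrix (0.67, adjusted p = 0.0300; 0.91 in KO animal 5), and Cst3, a secreted protease inhibitor (0.49, adjusted p = 0.0196; 0.29 in KO animal 5), which was named after its values were seen. Sparcl1 was below detection in WT, at least 1.61-fold higher, and near WT in KO animal 5 (0.13). The lower one was Gja1, the main astrocytic gap junction protein (-0.76 ± 0.25 SE, adjusted p = 0.0469, and -0.65 in KO animal 5). The list was at 0.88 in the inner and 0.02 in the outer layer, as a median.

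Olig1 was the 1 higher call among 11 oligodendrocyte lineage genes, and 2 were lower. Cnp, an enzyme of myelin, differed by -0.47 (adjusted p = 0.0397) and by -0.36 in KO animal 5. Cspg4, a proteoglycan of oligodendrocyte progenitors, differed by -0.65 (adjusted p = 0.0364) but by -0.03 in KO animal 5. Pdgfra, the receptor of oligodendrocyte progenitors, differed by 0.73 (0.72 in KO animal 5) and was not called on the mean of both layers (adjusted p = 0.0631). In the inner layer alone it was higher by 1.33 (limma adjusted p = 0.0084). The median of the list was -0.03, and 0.15 in KO animal 5.

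GABAergic interneuron genes held 13 measured members, with 6 higher and 1 lower and a median of 0.21 (0.18 in KO animal 5). Gad1, which makes GABA, was at 9.68, 9.57, 9.52, 9.56 and 9.07 against 7.96, 8.88, 8.39, 8.74 and 8.77. KO animal 5 was the lowest of the KO animals and above all WT animals. The difference was 0.93 ± 0.18 (SE; adjusted p = 0.0196) and 0.53 in KO animal 5, and a second probe gave 1.35 (adjusted p = 0.0220). The neuropeptide gene Sst was higher by 0.84 (0.33 in KO animal 5), the transcription factor genes Maf by 1.04 (0.59) and Dlx2 by 0.82 (0.04). Maf was detected on 1 of 5 WT arrays. Calb2, a calcium-binding protein, was lower (-0.56, adjusted p = 0.0263), from -1.19 in the inner and 0.07 in the outer layer.

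Genes of the pyramidal neurons themselves were counted next. CA3 field genes had 4 of 11 members higher and 0 lower, with a median of 0.26 (0.12 in KO animal 5). Cpne4, a copine of CA3 neurons, was higher by 0.28 (0.31 in KO animal 5), from 0.56 in the inner and 0.01 in the outer layer. Prkcd, a protein kinase C, was higher by 0.26 (0.14 in KO animal 5) and Nrip3 by 0.37 (0.06). Elavl4, a neuronal RNA-binding protein, was higher by 1.16 but at -0.03 in KO animal 5, and its other probe gave -0.21 (adjusted p = 0.236). Of the 16 pyramidal glutamatergic genes, 3 were higher and 1 lower. Neurod2 was higher by 0.75 and Neurod1 by 1.15, with 0.16 and -0.11 in KO animal 5. Of 8 genes of the CA1 and CA2 fields 1 was lower, and of 7 early-born and subplate neuron genes 1 was lower, in both lists Nr4a2, a nuclear receptor (-0.46, and -0.52 in KO animal 5).

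Genes of intermediate progenitors and newborn neurons had 11 measured members, 0 higher and 2 lower, with a median of -0.15. The lower ones were Igfbpl1 (-0.71, adjusted p = 0.0174) and Insm1, a transcription factor of intermediate progenitors (-0.48, adjusted p = 0.0174). Both were low in the inner layer (-1.45 and -1.19) and near or above WT in the outer layer (0.03 and 0.22). In KO animal 5 they were at -0.44 and -0.52.

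Microtubule genes, the pathway in which Dcx works, held 39 measured members, of which 7 were higher and 3 lower, Dcx included, with a median of 0.05. Several of the higher ones were high in KO animals 1 to 4 and not in KO animal 5. Stmn1, a tubulin-sequestering protein, was at 10.31, 10.12, 10.21, 10.33 and 8.03 in the KO and 7.97 to 8.41 in WT, so that its difference of 1.53 (adjusted p = 0.0242) became -0.24 in KO animal 5. Dynlt3, a dynein light chain, differed by 1.70 and -0.04, and Mapre3, an end-binding protein, by 1.00 and -0.02. Mapre3 was detected on 1 of 5 WT arrays. Map1b, a microtubule-associated protein of growing axons, and Kif2a, a microtubule-depolymerising kinesin, were above WT on all 10 KO arrays, and were named after their values were seen. Map1b was at 12.63, 12.62, 12.65, 12.69 and 12.15 against 11.65 to 11.95 in WT (0.78, adjusted p = 0.0148), but its 3 other probes lay between -0.09 and 0.11 and were not called. Kif2a was at 9.85, 9.92, 10.10, 10.29 and 9.57 against 9.16 to 9.48 (0.62, adjusted p = 0.0196), and differed by 0.24 in KO animal 5.

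Genes of neuronal migration and wiring were called at shares near that of all genes. In the reelin and migration list 5 of 21 were higher and 1 lower, among them Cxcr4, a chemokine receptor of migrating neurons (0.62, and 0.25 in KO animal 5). In the axon guidance and adhesion list 6 of 29 were higher and 1 lower, among them Rgma and Sema5a, a semaphorin (1.04 and 0.25). Sema5a was detected on 1 of 5 WT arrays. In the synapse list 5 of 29 were higher and 0 lower. Sv2b, a synaptic vesicle protein, was higher by 0.99 (0.53 in KO animal 5) and Nrxn3, a presynaptic adhesion protein, by 0.64 (0.53), the latter with another probe at -0.05. Nlgn1, its postsynaptic counterpart, was below detection in WT and at least 1.72-fold higher, but stood at -0.07 in KO animal 5.

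Most of the named mitochondrial genes were high in KO animals 1 to 4 and near WT in KO animal 5. Of 37 oxidative phosphorylation genes 9 were higher and 0 lower, with a median of 0.02. Atp5a1, a subunit of ATP synthase, was at 8.65, 8.67, 8.53, 8.60 and 6.61 in the KO and 6.25 to 6.7 in WT, which gave 1.70 over all animals and 0.10 in KO animal 5. Ndufb9 and Ndufb2, of complex I, differed by 1.59 and 1.43, and by 0.21 and 0.13 in KO animal 5. Sdhb and Ndufs3, named after their values were seen, were above WT on all 10 KO arrays, by 0.50 and 0.38, and by 0.12 and 0.11 in KO animal 5. Of 24 mitochondrial ribosome and import genes 4 were higher and 2 lower. Tomm70a, an import receptor, differed by 1.71 (0.21 in KO animal 5), and Timm50, of the inner membrane translocase, by -0.47 (-0.35).

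The called cell cycle genes named here differed between the layers. Of 18 measured, 3 were higher and 2 lower, with a median of 0.19, and 0.34 in KO animal 5. Cdk1, the mitotic kinase, was higher by 0.65 (1.08 inner, 0.22 outer), Cenpa, a centromeric histone, by 0.59 and Ccnd2, a cyclin of progenitors, by 0.45 (0.91 inner, -0.01 outer). Tyms, which makes thymidylate, was lower (-0.35; -0.68 inner, -0.02 outer), with another probe at -0.13. In KO animal 5 the 4 genes were at 0.61, 0.63, 0.45 and -0.28. Of 5 histone genes 2 were higher. H2bc4 was higher by 1.39 (0.86 in KO animal 5; 2.17 inner, 0.61 outer), and H3f3b, a replacement histone, by 0.63 (0.12 in KO animal 5).

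**Figure D4:**
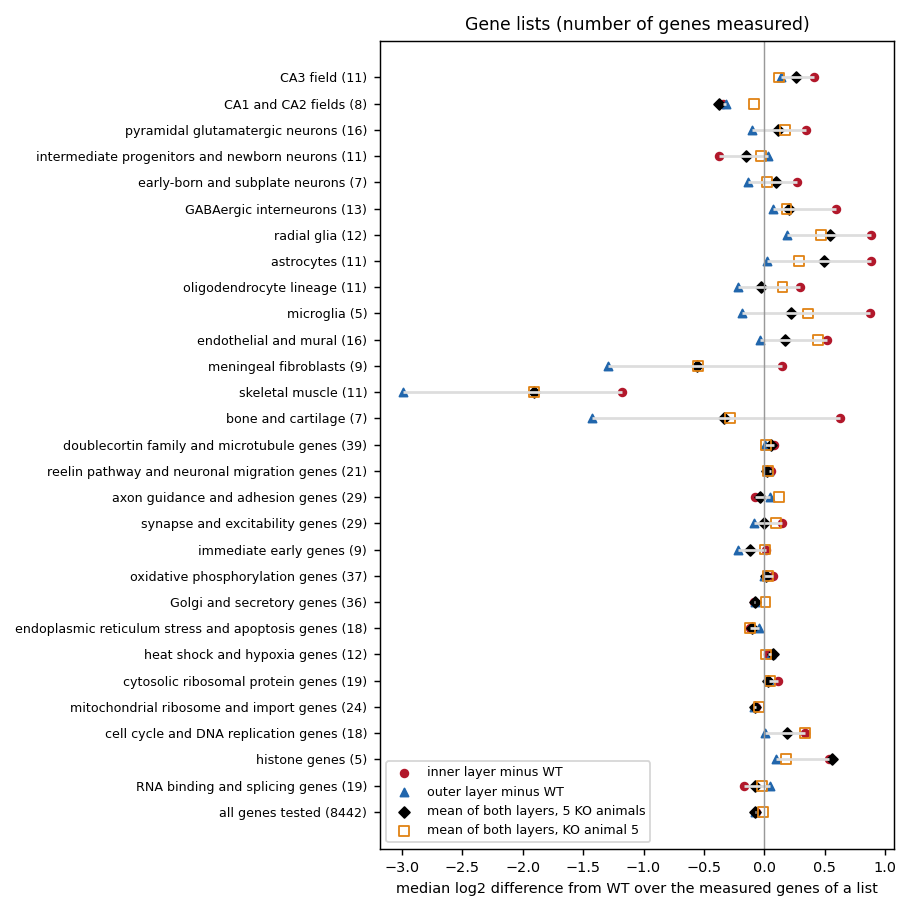
Median log2 difference from WT over the measured genes of each list with 5 or more of them (number in brackets): inner layer (red circles), outer layer (blue triangles), mean of both layers over 5 KO animals (black diamonds) and over KO animal 5 (open squares). Radial glia and astrocyte genes stand at 0.54 and 0.49 and are higher in the inner layer, most pathway lists lie near 0, and skeletal muscle genes lie at -1.91.

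Golgi and secretory genes had 5 higher and 4 lower of 36 (25%), near the share of all genes. Lower shares were called among the endoplasmic reticulum stress genes, with 2 higher and 1 lower of 18, and the cytosolic ribosomal protein genes, with 2 higher of 19. Ddit3, a transcription factor of the stress response, was below WT on all KO arrays (-0.46, and -0.34 in KO animal 5), with another probe at 0.16. Among endothelial and mural genes 3 of 16 were higher, led by Igfbp7 (1.43, and 0.76 in KO animal 5). It was at 8.59, 8.81, 8.47, 8.46 and 7.74 against 7.52, 6.94, 6.84, 6.39 and 7.19. Of 5 microglia genes 1 was higher, Cx3cr1, below detection in WT.

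Levels of markers of tissue outside the brain ranged widely within each genotype. Of 11 skeletal muscle genes 0 were called by limma (2 at an unadjusted p under 0.05), with a median difference of -1.91, and their mean level was 4.88 to 8.09 on KO arrays and 5.14 to 9.68 on WT arrays. Of 9 meningeal fibroblast genes and 7 bone and cartilage genes 0 were called (1 and 0 at an unadjusted p under 0.05), with medians of -0.56 and -0.33. Over all genes, 3341 of 8442 had an unadjusted p under 0.05 in that limma fit, so these lists lay below the share of all genes. Of the 469 genes measured over all lists, 0 beside Dcx were called with the array set as a term. In that fit 35 of the 469 had an unadjusted p under 0.05, against 316 of all 8442 genes. The part of array set and of tissue admixture in the list counts was not tested.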

How the data were processed

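Illumina bead arrays measured RNA of microdissected CA3 tissue in 15 samples. The authors deposited log2 signals, which carry no normalization between arrays that the values show, and a table of scores. Tested on the values, the deposited score is the log2 signal minus the array median, divided by the array SD. On the 8 arrays of KO animals 1 to 4 a shift that varies between entries is added. The submitters' processing notes name limma, without a role. The array build and the bead summary are not given in the sources used here.

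The log2 signals were turned back to linear signals. The neqc function of limma 3.58.1 (R 4.3.3), with its robust option and an offset of 16, then removed background estimated from 1114 entries without a probe, taken as negative controls, and quantile-normalized the arrays. Deposited detection p-values had been planned for, and in their place each was computed as the share of controls at or above a signal. Probes with a detection p under 0.01 on at least 5 of 15 arrays were kept (12077 probes, 47.0%). Of these 707 had no symbol. For each of the 8442 genes the kept probe with the highest mean was used. Several probes were kept for 2163 genes. Symbols came from the platform annotation, matched to RefSeq genes of GRCm38.p6, which was used for names and gene order only.

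The value of a KO animal is the mean of its layers. Groups were compared with lmFit and eBayes in two-sided tests. All kept probes entered the Benjamini-Hochberg adjustment, and a call is an adjusted p under 0.05. Layers were compared with the animal as a block. Where a probe was below detection in every WT array, the fold is a bound against the lowest detected signal of each array. Fits were tested on simulated data. The labels do not say whether samples came from separate litters, so p-values measure the spread between these animals, and their number limits the precision.

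Genes named were Dcx, Dclk1 and Dclk2, 12 in each direction by the stricter description, 6 in each direction by size, those called with the set term, and up to 4 a list, called ones first. Acsl4, Map1b, Kif2a, Sdhb, Ndufs3, Cst3, Jam2, Tril and Emilin2 were added after their values were seen. Members and lists were chosen with earlier results of these data known. Numbers shared by KO and WT were not taken to pair animals. Deviations of animals of the same number correlated with r of 0.31, -0.18, -0.33, 0.42 and -0.22. The gap between KO animal 5 and KO animals 1 to 4 enters these values, so they cannot decide on pairing. Layers of 1 animal came from the same brain, per the series design (r of 0.55, 0.26, 0.38, 0.39 and 0.77). Alternatives were other normalizations, filters, layer weightings, left-out animals and arrays, and the array set. Probe sequences and coordinates were not used here.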

Additional observations from a re-analysis of the deposited data

Results flagged for a closer look

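Among the 99 genes named, 198 groups of 5 animals were searched for 1 animal far from the others, by the share of the range that lies between it and its nearest neighbour. Such an animal was found in 33 groups, and in 23 of them it was KO animal 5. The cutoff is one that chance passes in about 1 in 20 groups. These genes were named in part by the same values and are not independent, so that rate is no benchmark for the 33. The part of the array set in these counts was not tested.

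KO animal 5 lay far below the other KO animals in the genes of the largest differences, with shares of 0.955 for Pabpc1, 0.961 for Zc3h15, 0.920 for Ankrd46, 0.876 for Vps26b, 0.908 for Rgma and 0.869 for Prmt8. It did so in the mitochondrial genes Atp5a1 (0.932), Ndufb9 (0.856), Sdhd (0.881), Tomm70a (0.899) and Mrpl20 (0.776), and in the microtubule genes Stmn1 (0.908), Dynlt3 (0.777) and Map1b (0.865). The same held for Notch1 (0.786), Gad1 (0.743), Dlx2 (0.776), Neurod1 (0.807), Sema5a (0.721), Nlgn1 (0.852), Rpl5 (0.885) and Eif2s3y (0.920). In Cln8 it lay above the others (0.723).

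KO animal 2 stood apart as the highest KO animal in Slc22a21 (0.774), Timp4 (0.733) and Aldoc (0.739) and as the lowest in Cenpa (0.795). KO animal 1 stood apart in Pold2 (0.745) and Nrxn3 (0.721). Among WT animals, WT 5 did so in Sox9 (0.729), WT 1 in Nr4a2 (0.807), WT 3 in Stmn1 (0.736) and WT 2 in Nlgn1 (0.732).

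In 40 genes the difference from WT was not alike in both layers, tested as outer minus inner within animals. Lower in the outer layer were the glial and progenitor genes Olig1 (-1.11), Aldoc (-1.11), Tril (-1.0), Bcan (-0.97), Nes (-0.54), Hes5 (-0.65), Pdgfra (-1.21) and Cnp (-0.34). Also lower there were Timp4 (-0.63), Gstm1 (-0.33), Slco2b1 (-0.47), Slc35f1 (-0.35), Jam2 (-0.47), Igfbp7 (-0.83), Slco1c1 (-0.62), an organic anion transporter of brain vessels, and Cx3cr1 (-0.82). The cell cycle and histone genes Cdk1 (-0.86), Cenpa (-0.76), Ccnd2 (-0.92) and H2bc4 (-1.56) followed. Among neuronal genes the outer layer was lower for Gad1 (-0.48), Elavl4 (-0.61), Nrip3 (-0.54), Cpne4 (-0.55), Sema5a (-1.30), Sv2b (-1.21), Nrxn3 (-0.84) and Dynlt3 (-0.33).

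Higher in the outer layer were Cldn3 (1.62), Igfbpl1 (1.48), Insm1 (1.41), Emilin2 (1.27), Calb2 (1.26), Kcp (1.17), Neurod1 (0.90), Stmn1 (0.66), Tyms (0.66), Tmed2 (0.54), Itprip (0.50) and Usp10 (0.39).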

How the results depend on the processing

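All 98 genes named beside Dcx kept their direction under the 4 other normalizations, without a detection filter and without any 1 animal. They kept it without the muscle and bone arrays, as did the 65 detected on all 15 arrays under that filter. Most were named for being called, which favours a kept direction. Their calls held less well. Of the 98 genes, 54 lost a call with deposited signals as they stand, 50 with the scores, 24 with median scaling and 1 with quantile normalization alone. Without KO animals 1 to 5 in turn, 15, 78, 83, 82 and 0 lost it. Without the muscle and bone arrays 95 did. Dcx stayed at -1.46 to -1.39 without 1 animal, and its call was lost when the arrays rich in muscle or bone transcripts were dropped (-1.41, adjusted p = 0.0513) and within the array set of WT (-1.51, adjusted p = 0.343). The count of 1875 was 408 with deposited signals as they stand (407 higher, 1 lower), 855 with median scaling (801 higher, 54 lower) and 449 with the authors' scores (67.7% higher against 50.9%). It was 0 without the muscle and bone arrays, 3434 with weights, and 13 to 3047 without 1 animal. It was 1 with the array set as a term, and 0 within the array set of WT. With the array set as a term the 1 call became 0 with signals as they stand, with median scaling, without the muscle and bone arrays and within the array set of WT. It became 2 with the scores, without a filter and with 15 arrays and a random block, and 7 with the inner layer only. The count of 221 genes called with all KO arrays on 1 side became 9, 48, 67 and 0 with signals as they stand, median scaling, scores and without the muscle and bone arrays, 1301 and 564 with the inner and the outer layer only, and 10 to 1421 without 1 animal. The 1765 layer calls were 108, 102 and 307 with signals as they stand, median scaling and without the muscle and bone arrays, 983 (without KO animal 1) to 1282 without 1 animal, and 706 with no replicate block.

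The labels give no pairing of KO with WT animals beyond a shared number. With the replicate block the count of 1875 was 1 and that with the set term 0, Dcx kept -1.41 (adjusted p = 0.0170), and 2 of 5 KO animals correlated best with the WT animal of their own number.

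With the array set as a term, as within the array set of WT, 13 genes changed sign: Atf4 (-0.0014), Dynlt3 (-0.040), Eif2s3y (-0.37), Elavl4 (-0.033), Mapre3 (-0.018), Mrpl20 (-0.14), Neurod1 (-0.11), Nlgn1 (-0.073), Rgma (-0.13), Sdhd (-0.12), Stmn1 (-0.24), Vps26b (-0.0014) and Zc3h15 (-0.21). With the outer layer only, 5 did: Calb2 (0.068), Ccnd2 (-0.0080), Emilin2 (0.0014), Igfbpl1 (0.034) and Insm1 (0.22). Settings that drop animals or arrays test fewer samples, and the cause of the other changes was not tested. Signals not well above background in WT leave only a bound, or no fold, for genes such as Timp4, Notch1, Slc31a2 and Jam2. Slc35f1, Smc6, Usp10, H2bc4 and Vps26b were detected on 3 of 5 WT arrays, so the sizes of their differences rest in part on WT signals at background.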
